A study of Mus musculus with 8 samples.

Results

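The dystrophin-associated complex and the membrane repair genes were represented by 8 genes: Dmd, Utrn, Dag1, Sgca, Sgcb, Sgcd, Dysf and Cav3. Their members were the ChIP-seq intervals that lay inside the gene body or within 50 kb of it, and 69 of the 43759 called intervals met this rule. Of these, 12 of 5912 were myogenin intervals from control cells (Ctl), 8 of 6642 were myogenin intervals from bexarotene-treated cells (Bex), 32 of 22051 were p300 intervals in Ctl and 17 of 9154 were p300 intervals in Bex. The cells were C2C12, a mouse skeletal myoblast line of C3H strain origin, kept for 24 h in low-serum differentiation medium either without further agent (Ctl) or with 50 nM bexarotene (Bex). Bexarotene is a selective agonist of the retinoid X receptor (RXR), and the comparison asks how RXR signaling affects the loci bound by myogenin and p300 early in myogenic differentiation. Each factor was profiled in 1 library per condition, so there was no replicate error, no test between conditions was made, and the 95% exact binomial (Clopper-Pearson) intervals cover counting error over genomic intervals only. The lists give positions in mm9 without tag counts, so the strength of an interval is unknown, and the depth of each library is not given in the sources used here. Markers of the cell type could not be checked, because no expression values were used.

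The dystrophin-associated complex is an assembly of proteins in the muscle membrane that ties the actin cytoskeleton inside the fiber to laminin outside it, and its loss causes muscular dystrophies. Dystrophin (Dmd) and its autosomal relative utrophin (Utrn) hold actin, dystroglycan (Dag1) spans the membrane and binds laminin, the sarcoglycans (Sgca, Sgcb and Sgcd) stabilize dystroglycan, and dysferlin (Dysf) and caveolin-3 (Cav3) serve membrane resealing and membrane organization in muscle. Myogenin is a basic helix-loop-helix factor of terminal muscle differentiation that binds E-boxes (CANNTG), and p300 is a histone acetyltransferase found at active enhancers and promoters.

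The sequences below show the longest myogenin interval of each gene that had one, myogenin intervals at a member's transcription start site (TSS), and the only Bex myogenin interval at Dysf. They were read from the plus strand of mm9, intervals over 300 bases were reduced to their central 300, and capitals mark the core E-boxes, which are CAGCTG (its own reverse complement) and CACCTG with its reverse complement CAGGTG.
Utrn intron 1, chr10:12541219-12541518: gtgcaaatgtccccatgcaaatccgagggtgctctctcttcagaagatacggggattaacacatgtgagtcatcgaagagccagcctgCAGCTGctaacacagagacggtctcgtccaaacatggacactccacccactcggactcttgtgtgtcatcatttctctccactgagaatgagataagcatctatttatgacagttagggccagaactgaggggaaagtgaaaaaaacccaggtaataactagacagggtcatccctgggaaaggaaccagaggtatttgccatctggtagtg
Dag1 upstream site, chr9:108176992-108177291: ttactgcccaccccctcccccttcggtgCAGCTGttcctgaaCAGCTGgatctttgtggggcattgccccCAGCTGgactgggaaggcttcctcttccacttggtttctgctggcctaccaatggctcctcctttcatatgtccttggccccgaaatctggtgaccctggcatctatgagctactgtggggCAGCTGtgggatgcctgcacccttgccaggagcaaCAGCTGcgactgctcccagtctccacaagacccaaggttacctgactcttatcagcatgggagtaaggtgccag
Dag1 promoter, Bex only, chr9:108166859-108167070: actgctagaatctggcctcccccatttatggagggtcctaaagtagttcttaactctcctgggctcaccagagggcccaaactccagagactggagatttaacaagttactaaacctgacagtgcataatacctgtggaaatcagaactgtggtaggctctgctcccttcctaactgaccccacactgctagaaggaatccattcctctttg
Sgca upstream site, Bex only, chr11:94851046-94851259: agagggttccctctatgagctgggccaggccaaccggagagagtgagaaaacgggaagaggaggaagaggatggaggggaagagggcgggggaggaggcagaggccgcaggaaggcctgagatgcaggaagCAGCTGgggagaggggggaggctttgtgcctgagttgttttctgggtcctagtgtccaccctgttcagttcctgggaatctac
Sgcb intron 1, Ctl only, chr5:74038449-74038620: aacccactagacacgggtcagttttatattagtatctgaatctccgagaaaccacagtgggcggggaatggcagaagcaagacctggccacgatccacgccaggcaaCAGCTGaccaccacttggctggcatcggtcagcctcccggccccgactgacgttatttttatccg
Dysf intron 1, Bex only, chr6:83972115-83972282: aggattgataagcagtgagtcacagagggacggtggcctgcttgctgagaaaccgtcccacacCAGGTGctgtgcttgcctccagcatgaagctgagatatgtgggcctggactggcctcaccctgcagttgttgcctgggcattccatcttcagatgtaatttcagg
Dysf downstream site, Ctl only, chr6:84193564-84193780: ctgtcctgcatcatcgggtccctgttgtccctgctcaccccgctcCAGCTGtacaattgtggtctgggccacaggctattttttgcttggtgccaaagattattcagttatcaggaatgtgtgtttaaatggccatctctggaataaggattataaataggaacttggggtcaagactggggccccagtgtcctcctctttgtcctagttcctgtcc
The Dag1 upstream sequence held 5 core E-boxes, all of them CAGCTG, and the Dag1 promoter sequence held 0. Each of the other 5 sequences held 1, which was CAGCTG at Utrn, Sgca, Sgcb and the downstream site of Dysf, and CAGGTG in Dysf intron 1.

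Myogenin intervals were found at 5 of the 8 genes in Ctl and at 4 of 8 in Bex. Over all 22238 protein-coding genes of the annotation, 32.4% had a Ctl myogenin interval and 33.0% a Bex myogenin interval by the same rule. For p300, 6 of the 8 genes had an interval in Ctl against 53.7% of all genes, and 5 of 8 had one in Bex against 35.2% of all genes. Utrn, Dag1, Sgca and Dysf had intervals in all 4 lists, which held for 14.7% of all genes. Dmd and Cav3 had none in any list, which held for 36.0% of all genes. With 8 genes, shares above these backgrounds are a description only. The order of the conditions for myogenin turned with a window of 10 kb, which left 2 genes with 4 intervals in Ctl and 3 genes with 5 intervals in Bex. Without intervals of the smallest length, 3 genes had a myogenin interval in each condition, and counting only intervals nearest to a member's TSS gave 6 intervals in each condition, at 4 genes in Ctl and 3 in Bex.

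**Figure D1:**
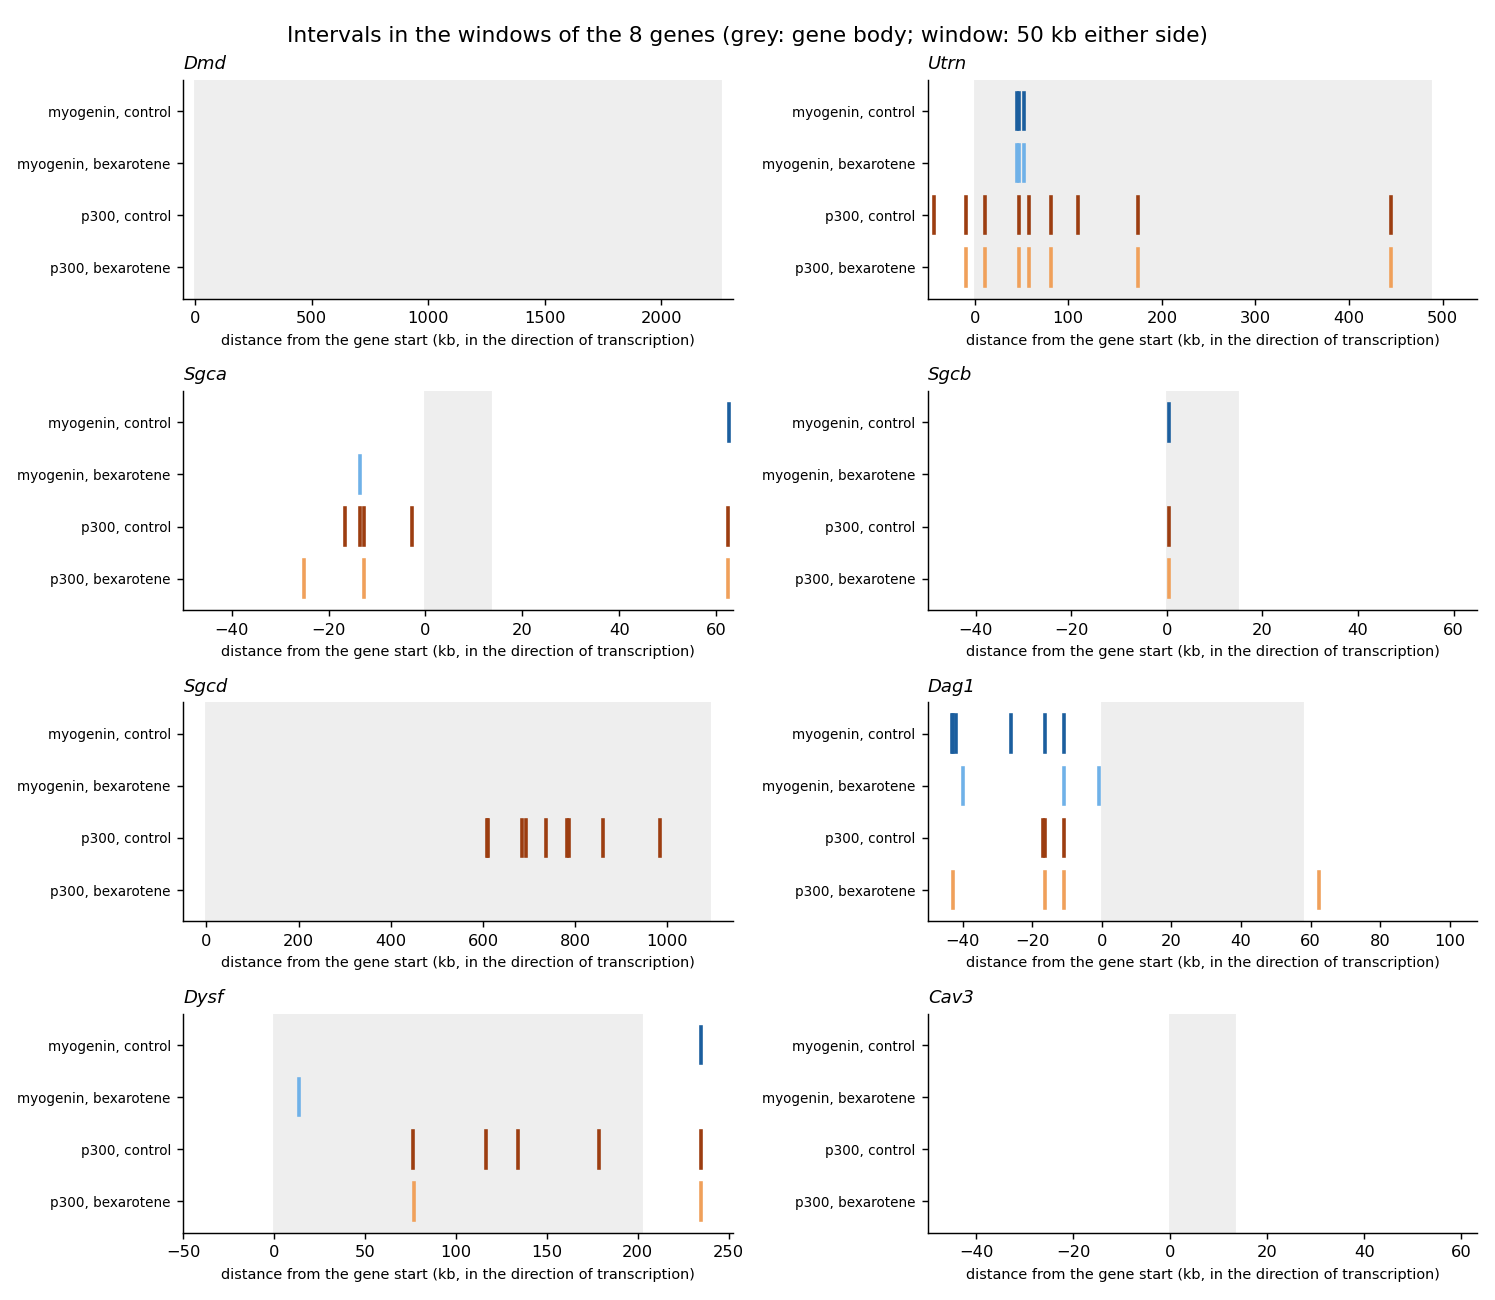
Positions of the called intervals in the windows of the 8 genes. The horizontal axis is the distance from the gene start in kb in the direction of transcription, each vertical bar is 1 interval, rows are the 4 lists and grey marks the gene body. Utrn shows nearly the same pattern in both conditions, Sgcd shows p300 bars in Ctl only, and the Dmd and Cav3 panels are empty.

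Utrn, the autosomal relative of dystrophin, had the highest raw count of the 8 genes, 22 intervals over the 4 lists in a window of 587 kb. Per 100 kb of window, its densities of 0.511 (myogenin, either condition), 1.53 (p300 Ctl) and 1.19 (p300 Bex) were below those of the shorter windows of Sgca (0.881, 4.40 and 2.64) and Dag1 (3.80 and 1.90 for myogenin in Ctl and Bex, 1.90 and 2.53 for p300). Its body is chr10:12101986-12589163, transcribed from the minus strand. There were 3 myogenin intervals in Ctl and 3 in Bex, and every one of them overlapped its counterpart, so Utrn had 3 shared myogenin regions and none unique to a condition. All 3 lay in intron 1 of Utrn-202, between 45.25 and 52.27 kb downstream of the gene start by the Ctl intervals. The nearest protein-coding TSS was an internal one, that of Utrn-203 at 12533337. By the Ctl intervals, the 3 regions were centered 3.55, 8.03 and 10.6 kb upstream of it, in the order given next. The first, from 12536730 to 12537048 in Ctl (319 bp) and from 12536800 to 12537011 in Bex (212 bp), did not overlap p300. The middle one, from 12541152 to 12541586 in Ctl (435 bp) and from 12541158 to 12541423 in Bex (266 bp), overlapped p300 in both conditions. Its p300 intervals ran from 12541119 to 12541440 in Ctl (322 bp) and from 12541136 to 12541469 in Bex (334 bp). The last, from 12543782 to 12544048 in Ctl (267 bp) and from 12543727 to 12543992 in Bex (266 bp), did not overlap p300. The middle site was thus called in all 4 lists, and the 4 intervals had 266 bp in common, with 1 core E-box at chr10:12541307-12541312. A second core E-box, CACCTG, lay 268 bp further along, at chr10:12541581-12541586, inside the Ctl myogenin interval and outside the Bex one. The letters TGAGTCA, a site for AP-1 and related bZIP factors, also lay within 100 bp of the center of all 4 intervals of this site.

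p300 at Utrn was also largely shared. There were 9 p300 intervals in Ctl and 7 in Bex, which made 7 shared regions, 2 Ctl only regions and 0 Bex only regions. Of the shared regions 6 lay inside the gene, from intron 1 to intron 64, and 1 lay 9.51 kb upstream of the gene start, at 12598435 to 12598920 in Ctl and 12598423 to 12598631 in Bex. The Ctl only intervals lay in intron 2 (159 bp, the smallest length of that list) and 43.1 kb upstream of the gene start (280 bp). TGAGTCA or its reverse complement TGACTCA lay within 100 bp of the center in 7 of 9 Ctl and 6 of 7 Bex p300 intervals at Utrn. All 6 Bex intervals overlapped Ctl intervals that also held these letters, so both counts rest largely on the same DNA. The same letters were found in 27.8% of the whole Ctl p300 list and 27.1% of the Bex list. Of the 7 member p300 intervals in Bex that held these letters, 6 were those at Utrn. GGAATG, the core of the site for Tead factors, was present on either strand in 5 of 9 and 5 of 7 p300 intervals at Utrn, against 18.7% and 18.9% of the whole lists. These were the same 5 shared regions in both conditions. TGTGGT, the core of the Runx site, was present within the same distance in 0 of 9 Ctl and 1 of 7 Bex p300 intervals at Utrn, and in 6 of 32 and 4 of 17 p300 intervals of all members, against 31.1% and 32.7% of the whole lists. Over all members, TGAGTCA was present in 11 of 32 and 7 of 17 p300 intervals and GGAATG in 10 of 32 and 8 of 17. Within the same 100 bp, a core E-box was present in 4 of 9 Ctl and 3 of 7 Bex p300 intervals at Utrn, against 32.3% and 39.0% of the whole lists.

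Dag1, which encodes dystroglycan, has its body at chr9:108108286-108166255 (minus strand). It had 6 myogenin intervals in Ctl, the most of the 8 genes, and 3 in Bex, as many as Utrn. None of the 9 lay inside the gene body. The region common to both conditions was 10.8 kb upstream of the Dag1 TSS, from 108176887 to 108177259 in Ctl (373 bp) and from 108176911 to 108177373 in Bex (463 bp). It overlapped p300 in Ctl, from 108176837 to 108177242 (406 bp), and in Bex, from 108176947 to 108177196 (250 bp). This was the second site called in all 4 lists, and 250 bp were common to all 4 intervals. Over all 2988 shared myogenin regions, 30.7% overlapped p300 in both conditions. Both myogenin intervals at Dag1 held 6 core E-boxes. The first was CACCTG and the other 5 were CAGCTG, and the gaps between neighbors were 28, 8, 22, 115 and 29 bp. Of these, 5 lay in the 250 bp that all 4 lists covered.

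**Figure D2:**
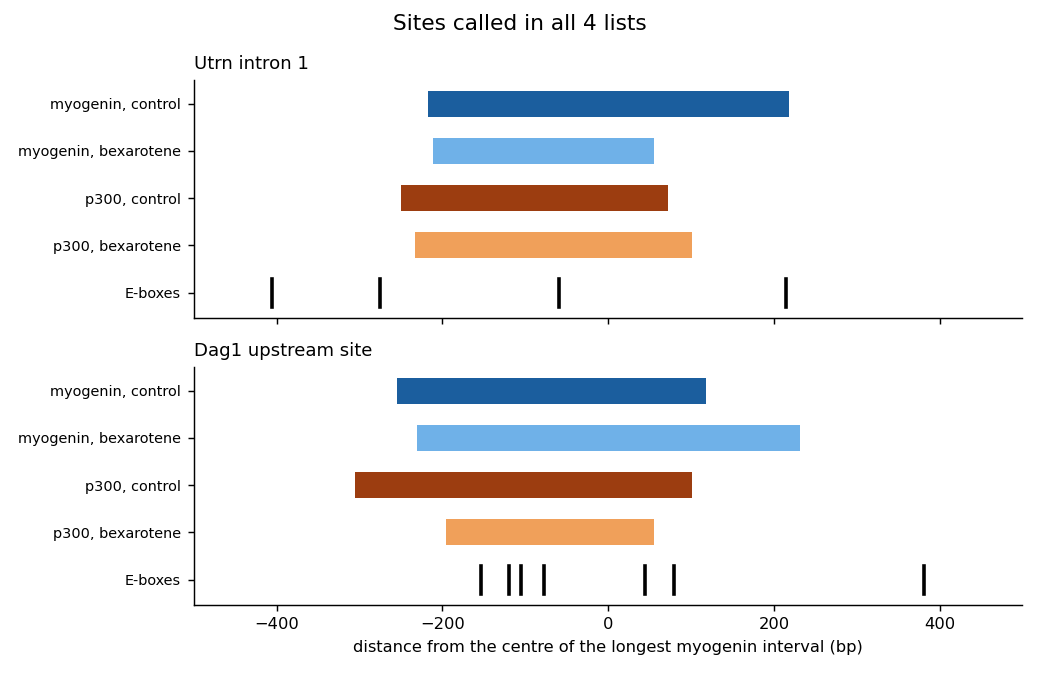
The Utrn and Dag1 sites that were called in all 4 lists. The horizontal axis is the distance in bp from the center of the longest myogenin interval, colored bars are the called intervals of each list, and black marks are core E-boxes on either strand. The Dag1 myogenin intervals span 6 E-boxes in either condition, while the Utrn Ctl myogenin interval spans 2 and the Bex interval 1.

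At the promoter of Dag1, myogenin was called in Bex and not in Ctl, from 108166859 to 108167070 (212 bp), centered 710 bp upstream of the TSS. No core E-box and no p300 interval was found there. The remaining intervals near Dag1 had a TSS of another gene as their nearest TSS. One of them, a Bex p300 interval from 108103589 to 108103800, lay 4.49 kb from the Dag1 body and 11.0 kb from its nearest TSS, that of Bsn. In Ctl, 5 of the 6 myogenin intervals were unique to that condition and nearest to the TSS of Nicn1, Tcta or Rhoa, and 4 of them lay within 1 kb of such a TSS. In Bex, a 168 bp interval from 108206099 to 108206266, unique to Bex, was nearest to Tcta. p300 had 3 intervals in Ctl and 4 in Bex, in 2 shared, 1 Ctl only and 2 Bex only regions, and in each condition 1 of them was nearest to a Dag1 TSS. It was the upstream site in both. The window of Dag1 is gene-dense, and assignment by distance cannot say which gene an interval serves.

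The sarcoglycan genes differed from each other. Sgcb (chr5:74023988-74038983, minus strand) had a myogenin interval in Ctl at 74038449 to 74038620, in intron 1 and centered 418 bp downstream of a TSS. It had the smallest length of its list (172 bp) and 1 core E-box, at chr5:74038556-74038561. No Bex myogenin interval was called within 50 kb, and the nearest lay 340 kb from the gene. p300 was called at the same place in both conditions, from 74038365 to 74038523 in Ctl (159 bp) and from 74038439 to 74038596 in Bex (158 bp), each at the smallest length of its list. The Bex p300 interval held the E-box and the Ctl one did not. These 3 were all the intervals at Sgcb.

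Sgcd, a gene of 1093 kb (chr11:46709755-47802471, minus strand), had p300 intervals in Ctl only. There were 9, all inside the gene and between 159 and 661 bp long, and no p300 interval of the Bex list lay within 768 kb of the gene. No myogenin interval was called in either condition, the nearest being 768 kb away in Ctl and 502 kb away in Bex. All 9 lay downstream of the TSS of Sgcd-002 at 47193024. The nearest to it, from 47192805 to 47193002 (198 bp), was centered 120 bp downstream of that TSS, in annotated untranslated sequence, and the next, of 159 bp, was centered 1.92 kb downstream. The longest, from 47118219 to 47118879 (661 bp), lay in intron 2 of Sgcd-003. TGAGTCA was found in 1 of the 9 and a core E-box near the center in 0 of 9. Utrn and Sgcd thus had equal numbers of Ctl p300 intervals, and 7 of 9 were called again in Bex at Utrn and 0 of 9 at Sgcd. Over the whole Ctl p300 list, 32.7% of intervals were called again in Bex. These are calls from 1 library per condition, and a call lost below the threshold cannot be told apart from an absent signal.

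Sgca, a short gene (chr11:94824105-94837641, minus strand), had no interval inside its body. Its Ctl myogenin interval, from 94774868 to 94775039 (172 bp), lay 49.1 kb from the gene and was nearest to the TSS of Col1a1. Its Bex myogenin interval, from 94851046 to 94851259 (214 bp), lay 13.5 kb upstream of the Sgca TSS and 1.20 kb upstream of Ppp1r9b, and it overlapped a p300 interval called in Ctl and not in Bex (94851110 to 94851308, 199 bp). Of 5 Ctl p300 intervals 1 was nearest to an Sgca TSS, a 159 bp interval 2.71 kb upstream of it, and 0 of 3 Bex p300 intervals were. Sgca therefore had intervals in all 4 lists under the distance rule, while 1 of its 10 intervals had an Sgca TSS as the nearest TSS.

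Dysf, which encodes the calcium-sensing repair protein dysferlin, has its body at chr6:83958584-84161054 (plus strand) and had a different myogenin interval in each condition. In Ctl, it lay 32.5 kb past the end of the gene, from 84193564 to 84193780 (217 bp), and p300 was called inside it in both conditions, from 84193593 to 84193751 in Ctl and from 84193585 to 84193742 in Bex. In Bex, myogenin was called in intron 1 instead, from 83972115 to 83972282 (168 bp, the smallest length of that list), 2.82 kb downstream of a TSS and without p300. That interval held TGAGTCA besides its E-box. p300 had 5 intervals in Ctl and 2 in Bex at Dysf. A p300 region in intron 15 was shared, with 916 bp in Ctl (84034580 to 84035495) and 253 bp in Bex (84035183 to 84035435), and the Ctl interval was the longest of all 69. The other 3 Ctl intervals inside the gene, in introns 30, 36 and 43, were Ctl only.

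No interval of any list was called at Dmd, although its gene body of 2257 kb is the 4th longest among protein-coding genes. Dmd is at chrX:80194209-82451480 (plus strand), and the nearest interval was a Bex myogenin interval 5160 kb away. The nearest p300 intervals were 5214 kb away in Ctl and 5215 kb away in Bex, and the nearest Ctl myogenin interval 6837 kb away. The stretch without any interval around Dmd ran from 75034301 to 90143546, or 15.11 Mb with 38 protein-coding genes and 0% undetermined bases. It was the longest of the 30082 stretches between neighboring intervals of the 4 lists combined. A stretch of nearly the same length, 15.01 Mb, lay elsewhere on chromosome X, and the stretches ranked 1, 2, 3 and 5 by length were all on that chromosome. Chromosome X as a whole had 0.0312, 0.0408, 0.156 and 0.0570 intervals per 100 kb in the Ctl and Bex myogenin and the Ctl and Bex p300 lists. Chromosomes 1 to 19 had 0.237, 0.266, 0.881 and 0.366, in the same order. Of the 52 genes with a body of at least 1000 kb, 19 (36.5%) had no interval, Dmd among them, and of the 6 genes of at least 2000 kb 3 had none (Dmd, Cntnap2 and Lrp1b). The part of the low density on chromosome X in the empty Dmd window was not tested. Read coverage and copy number over this stretch were not analysed here, so a stretch without binding and one without usable reads cannot be told apart.

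Cav3, the muscle caveolin, is at chr6:112409495-112422865 (plus strand), and no interval was called within 50 kb in any list. The nearest p300 intervals were 138 kb away in Ctl and 139 kb away in Bex, and the nearest myogenin intervals 603 kb away in Ctl and 389 kb away in Bex. Of the 10951 protein-coding genes with a body of at most 15 kb, 45.0% had no interval. The 250 bp upstream of the Cav3 TSS held 1 core E-box, and at least 1 was held by 27.6% of 45982 such stretches. A core E-box was also held at 1 TSS of Utrn, 3 of Sgca and 1 of Dysf, none of which had an interval of any list within 1 kb. Of the 25 distinct TSS of the 8 genes, 6 had a core E-box in this stretch and no interval within 1 kb, 6 had an interval within 1 kb (at Sgcb, Dag1 and Sgcd) and no core E-box, 13 had neither and 0 had both. Over all 45982 stretches these shares were 23.5%, 12.8%, 59.6% and 4.07%, and TSS of the same gene are not independent, so the count of 0 of 25 is a description only.

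Counted as regions, intervals of the same factor that overlapped by at least 1 bp being merged, the 8 genes had 16 myogenin regions and 35 p300 regions. Of the myogenin regions, 8 were Ctl only (50.0%, 24.7 to 75.3), 4 were shared (25.0%, 7.27 to 52.4) and 4 were Bex only (25.0%, 7.27 to 52.4). Over all myogenin regions these classes held 30.6%, 31.3% and 38.2%. Of the p300 regions, 18 were Ctl only (51.4%, 34.0 to 68.6), 14 were shared (40.0%, 23.9 to 57.9) and 3 were Bex only (8.57%, 1.80 to 23.1), against 62.1%, 30.1% and 7.76% over all p300 regions. Each background share lay within the interval for the members. With a window of 10 kb the order of the myogenin classes turned, to 1 Ctl only, 3 shared and 2 Bex only regions, so that shared regions were the largest class. The p300 regions were then 14 Ctl only, 9 shared and 1 Bex only. With a reciprocal overlap of 50% of each interval, they were 22 Ctl only, 10 shared and 7 Bex only. Shared myogenin regions came from Utrn (3) and Dag1 (1) only, and 5 of the 8 Ctl only regions were near Dag1. Of the 18 Ctl only p300 regions, 9 were at Sgcd and 3 each at Sgca and Dysf.

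**Figure D3:**
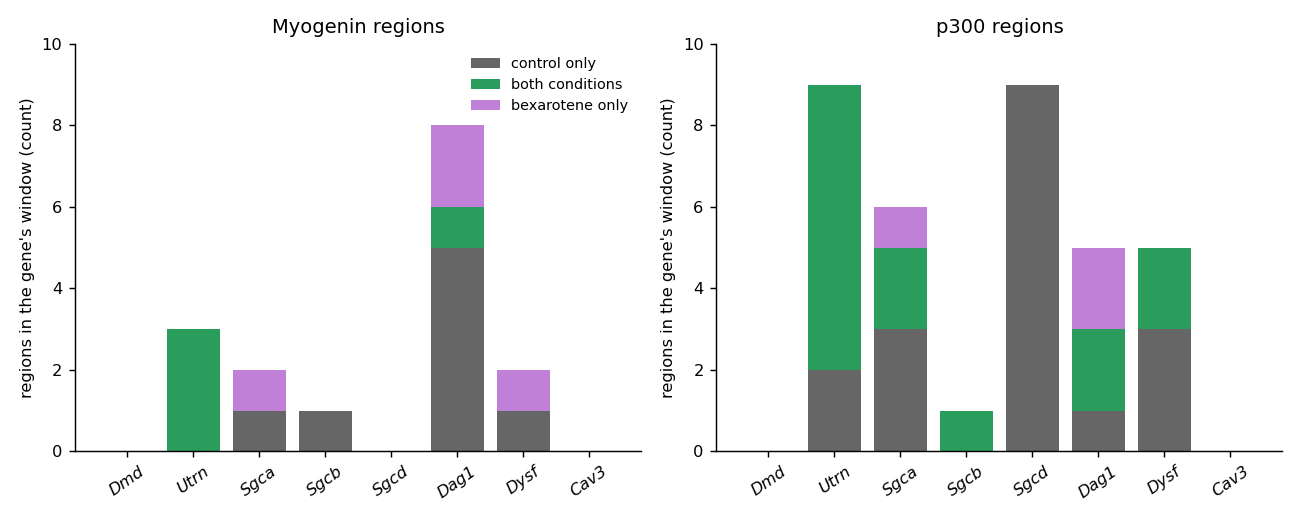
Number of myogenin (left) and p300 (right) regions in the window of each gene, stacked by the condition in which they were called. Bars count merged regions, and there are no error bars because each condition is 1 library. Utrn is dominated by regions called in both conditions, and the 9 Sgcd regions are all control only.

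Where an interval was called in both conditions, p300 intervals were mostly shorter in Bex. This held for 13 of 14 member p300 pairs, with a median difference of -84 bp, and for 90.0% of all 7097 p300 pairs, with a median of -107 bp. Since the smallest length is 159 bp in the Ctl list and 158 bp in the Bex list, a pair with both intervals at the smallest length counts as shorter in Bex by 1 bp, which covered 3 of the 13 (Sgcb, Dysf and Dag1). The comparison of lengths was itself not planned, and leaving out such pairs was also a choice made after seeing the data. Without these pairs, 10 of 11 member pairs and 89.2% of 6592 pairs were shorter in Bex. The exception was the Utrn site called in all 4 lists, which was 12 bp longer in Bex. The largest difference, -663 bp, was in Dysf intron 15. Of the 4 myogenin pairs, the 3 at Utrn were shorter in Bex, with differences of -107, -169 and -1 bp, and the Dag1 pair was longer by 90 bp, while 54.0% of all 2977 myogenin pairs were shorter in Bex and 45.5% of the 2514 pairs not at both smallest lengths (172 and 168 bp). The centers of the pairs moved by 16 to 78 bp for myogenin and by 8 to 272 bp for p300. The lists hold no tag counts to set beside these lengths.

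**Figure D4:**
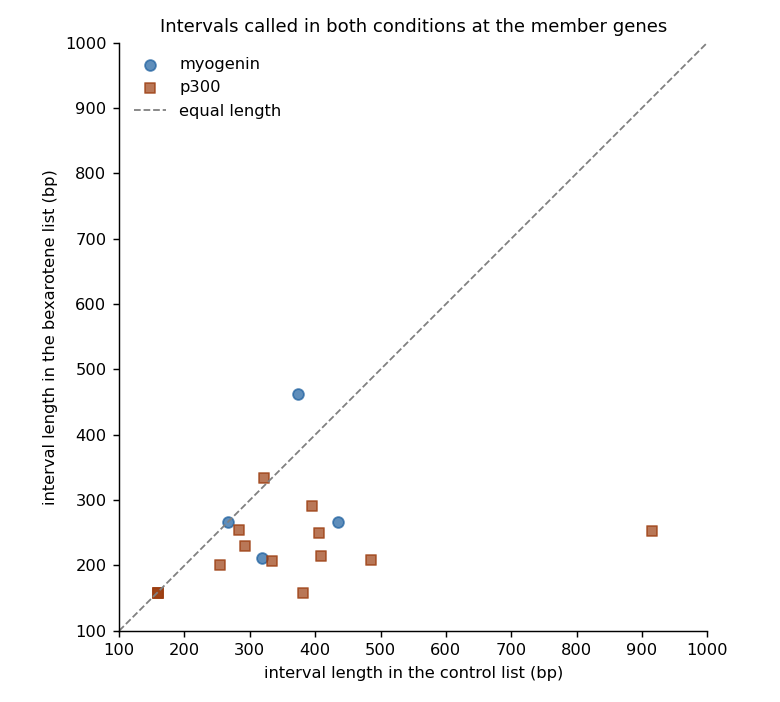
Length of intervals called in both conditions at the member genes, in bp, with the control list on the horizontal and the bexarotene list on the vertical axis. Circles are 4 myogenin pairs, squares are 14 p300 pairs and the dashed line marks equal length. All p300 squares but 1 lie below the line, 3 of them by 1 bp, where both intervals have the smallest length of their list.

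Core E-boxes within 50 bp of the center were found in 4 of 12 member myogenin intervals in Ctl (33.3%, 9.92 to 65.1) and 5 of 8 in Bex (62.5%, 24.5 to 91.5). The whole lists held them in 47.7% and 60.3% of intervals. Among p300 intervals the counts were 7 of 32 in Ctl (21.9%, 9.28 to 40.0) and 8 of 17 in Bex (47.1%, 23.0 to 72.2), against 19.6% and 25.2%. Part of this p300 difference fell on regions called in both conditions. Shared regions at Utrn (Ctl starts 12144196 and 12530628), Sgcb and Dysf intron 15 were counted in Bex and not in Ctl. Their called centers differed between conditions by 22, 30, 74 and 272 bp, in that order. No shared p300 region was counted in Ctl alone. With a window of 10 kb the p300 shares were 8.70% in Ctl (1.07 to 28.0), below the whole list, and 50.0% in Bex (18.7 to 81.3). Anywhere in the interval, a core E-box was present in 7 of 12, 6 of 8, 13 of 32 and 10 of 17 intervals of the 4 lists in the same order, against 65.2%, 77.2%, 38.1% and 40.7% of the whole lists. These are core E-boxes only, and any CANNTG was present in 9 of 12, 6 of 8, 26 of 32 and 13 of 17, against 82.4%, 90.6%, 77.0% and 75.0%. Myogenin overlapped p300 of the same condition at 5 of 12 member intervals in Ctl (41.7%, 15.2 to 72.3; all: 33.0%) and at 2 of 8 in Bex (25.0%, 3.19 to 65.1; all: 25.6%). The 2 in Bex were the Utrn and Dag1 sites called in all 4 lists. In Ctl they were joined by the Sgcb, Dysf and Sgca intervals. Without intervals of the smallest length of either factor, the shares were 25.0% in Ctl (3.19 to 65.1) and 33.3% in Bex (4.33 to 77.7). The order of the conditions was then turned. Within 1 kb of a protein-coding TSS of any gene lay 5 of 12 Ctl and 1 of 8 Bex myogenin intervals, against 24.2% and 12.5% of the lists, and 2 of 32 Ctl and 2 of 17 Bex p300 intervals, against 11.0% and 12.4%. Of the 5 in Ctl, only the one at Sgcb was at a member's own TSS. Every one of these background shares lay within the counting interval of the members.

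**Figure D5:**
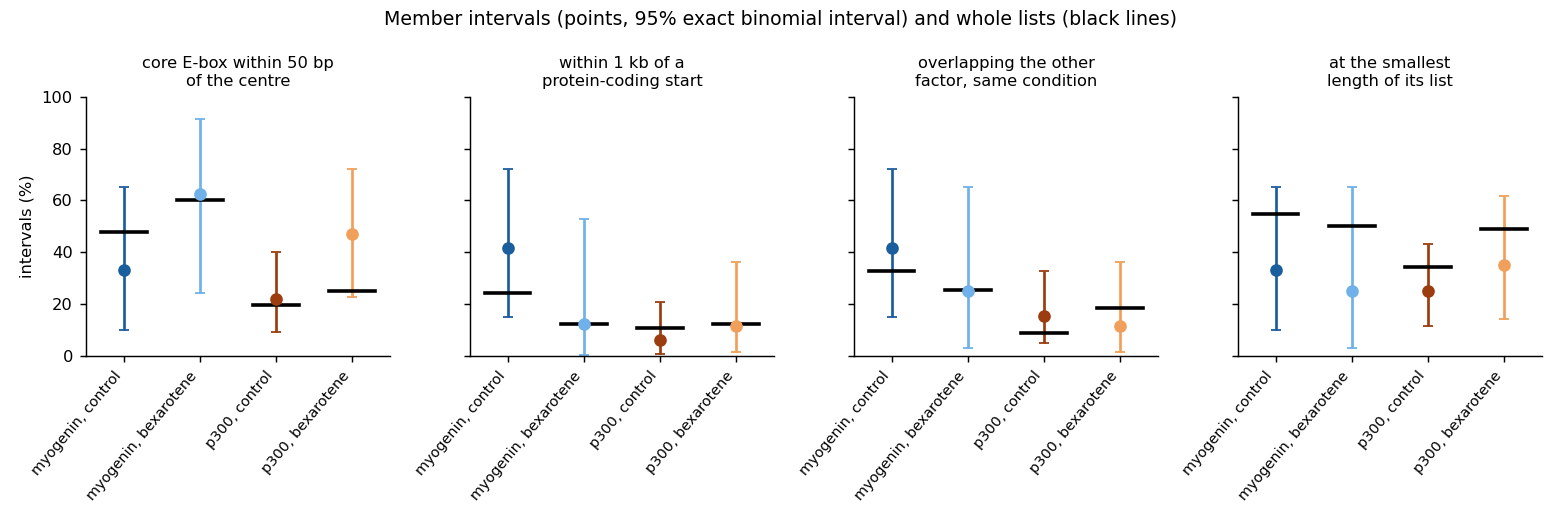
Share of member intervals, in percent, with a core E-box near the center, within 1 kb of a protein-coding TSS, overlapping the other factor in the same condition, and at the smallest length of the list. Points are the members with 95% exact binomial intervals for counting error, n is 12, 8, 32 and 17 intervals from left to right, and black lines are the whole lists. Each black line falls within the interval of the members.

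The density of intervals over the 8 windows was 0.243 (95% exact Poisson interval 0.126 to 0.424) and 0.162 (0.0699 to 0.319) per 100 kb for myogenin in Ctl and Bex, and 0.648 (0.443 to 0.915) and 0.344 (0.200 to 0.551) for p300. These intervals cover counting error only. The windows of all protein-coding genes had 0.313, 0.345, 1.05 and 0.432, so the 8 genes lay below this background for Bex myogenin and Ctl p300, while their intervals held it for Ctl myogenin and Bex p300. Without Dmd, which took 2357 of the 4940 kb, the densities were 0.465 (0.240 to 0.812), 0.310 (0.134 to 0.610), 1.24 (0.848 to 1.75) and 0.658 (0.384 to 1.05), and each interval held the background of its list. Dmd was left out here because its window was seen to be empty and is longer than those of the other genes.

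Among 31 other genes of the complex, its glycosylation and membrane repair, 17 and 19 had a myogenin interval in Ctl and Bex, and 22 and 19 had a p300 interval. Over all protein-coding genes these shares were 32.4% and 33.0% for myogenin and 53.7% and 35.2% for p300. Intervals of all 4 lists were found at 11 of the 31, against 14.7% of all genes: Sspn (sarcospan), Sntb1 and Sntg1 (syntrophins), Dtna (a dystrobrevin), Lama2 (a laminin chain), Large (a dystroglycan glycosyltransferase), Myof (myoferlin, a relative of dysferlin), Anxa2, Ahnak, Cav1 and Bin1. Sntb1 had 33 intervals over the 4 lists, Lama2 30, and Sspn and Bin1 27 each, all above the 22 of Utrn. Genes without any call included Sgcz (a sarcoglycan), Sntg2 (a syntrophin), Dtnb (a dystrobrevin) and Pomt2 (a mannosyltransferase that acts on dystroglycan). These counts follow the same distance rule and are not scaled by gene length.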

How the data were processed

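Myogenin and p300 ChIP-seq was performed on C2C12 cells with 1 library per factor and condition. Of the 8 samples, the 4 with a deposited peak list were used, and input and H3K27me3 were not used here. Per the authors' methods, myogenin reads were mapped to mm9 with BWA-MEM and p300 reads with Bowtie, duplicates were discarded with Picard, and HOMER findPeaks (factor style, variable-width regions) was run per library. The lists they deposited hold interval positions, which were counted from a start of 0 and are printed from 1. They carry no tag counts, so the authors' threshold could not be changed.

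Gene bodies and TSS of protein-coding transcripts were taken from GENCODE for the same build, and a gene's intervals were those inside it or within 50 kb. Distances to a TSS or gene start were measured from interval centers, and distances from a gene (its body, its end or the nearest interval) from the nearer edges. All 43759 intervals fell within their chromosomes. Either strand was searched for E-boxes, to 50 bp from the center unless the whole interval is named, and the other letters within 100 bp. Single intervals were named when within 1 kb of a member's TSS, called in all 4 lists, the longest myogenin interval of a gene, or the only one of a list, and those named beyond this rule, at Utrn, Sgca, Sgcb, Sgcd, Dag1 and Dysf, were chosen after their values were seen. The members and gene lists were chosen with earlier results of these data known. Alternatives changed the window, overlap rule, interval length, TSS set and E-box definition. Computations used Python 3.11.15, numpy 2.4.6, scipy 1.17.1, pysam 0.24.0 and matplotlib 3.10.9. Overlap, E-box and interval functions were tested on simulated data, and 4 of 4 steps gave the known answer.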

Additional observations from a re-analysis of the deposited data

How the results depend on the processing

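Of 92 alternatives to 28 values, 71 left the value within the counting interval or within 1.5 times of the count, and 21 did not. Of the latter, 9 came from the 10 kb window, under which 2 genes had a Ctl and 3 a Bex myogenin interval, so that the order of the conditions turned, the intervals fell to 4 (myogenin Ctl), 5 (myogenin Bex) and 10 (p300 Bex), the regions to 1 Ctl only and 2 Bex only for myogenin and 9 shared and 1 Bex only for p300, and the share of Ctl p300 intervals with a core E-box to 8.70%. That share was 40.6% over whole intervals and 50.0% with any CANNTG. Without intervals of the smallest length, 3 genes had a myogenin interval in each condition and 11 Bex p300 intervals remained. With intervals nearest to a member's TSS only, 6 Ctl and 6 Bex myogenin and 11 Bex p300 intervals were counted. A reciprocal overlap of 50% gave 7 Bex only p300 regions. Within 2 kb of a TSS lay 2 Bex myogenin and 5 Ctl p300 intervals. Without Dmd, densities were 0.465, 1.24 and 0.658 per 100 kb for myogenin Ctl, p300 Ctl and p300 Bex. No paired analysis was possible because each condition had 1 library. The cause of these moves was not tested beyond the smaller or larger set counted. Depth is not known from interval lists, so a missing call is no proof of absent binding.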
